A study of Homo sapiens with 6 samples.

Results

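The HOX genes are the homeobox genes of the 4 HOX clusters (A to D), taken here as every gene with a single annotated symbol made of HOX, a cluster letter and a paralogue number. Each was read from its brightest probe set by the mean over all arrays. Of 39 such genes in the RefSeq table of GRCh38.p14, 29 were measured, out of 18244 genes with a probe set: 10 of cluster B on chromosome 17, 9 of cluster C on chromosome 12, 9 of cluster D on chromosome 2, and *HOXA2* of cluster A on chromosome 7. The other 10 genes of cluster A were not analysed here. The samples were SH-SY5Y cells, an established human neuroblastoma line used as a neuronal model, 3 transfected with anti-miR-137, an inhibitor of the microRNA miR-137, and 3 with a negative control anti-miR. Both groups received 15 pM of anti-miR with Lipofectamine RNAiMAX 24 hours after seeding, were grown in DMEM/F12 with 10% serum, and gave total RNA 72 hours after transfection. The arrays are numbered 1 to 3 in both groups, and nothing in the labels says whether a number marks a separate culture or what it shares across the groups, so that p-values measure the spread between these samples, which may be technical. The study asked which mRNAs change when miR-137 is inhibited.

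HOX genes encode homeodomain transcription factors that give cells along the body axis their position. Their order along a cluster follows the order in which they are used: low paralogue numbers act in the hindbrain and neck, and high numbers act in the lumbar and sacral body, the limb ends and the genital region. The proteins bind DNA together with TALE homeodomain cofactors of the PBX, MEIS and PKNOX families. In the embryo, retinoic acid and CDX factors open the clusters, Trithorax proteins such as KMT2A keep them on, and Polycomb complexes keep them off. Sympathetic neurons, the lineage of neuroblastoma, come from neural crest of the trunk.

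The mature miRNA that was inhibited lies on chromosome 1 (chr1:98046091-98046113, minus strand, GRCh38.p14, RefSeq) and is shown because its seed, bases 2 to 8 in capitals, is what pairs with target mRNAs. No value of the miRNA itself was analysed here, so its inhibition was not checked.
hsa-miR-137-3p: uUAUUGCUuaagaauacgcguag

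RefSeq promoter windows, 250 bases before to 50 after an annotated start, were matched by symbol for 12 of the 29 genes: 7 of those described below as above the olfactory receptor level on every array, 4 below it on every array and *HOXD1*. *HOXC4* and *HOXC5* share one window. Of the windows shown, those of *HOXC4*, *HOXD8* and *HOXD10* belong to genes far above that level and that of *HOXD12* to a gene far below it. They lie at chr12:54016638-54016937, chr2:176129455-176129754, chr2:176116528-176116827 and chr2:176099545-176099844, all on the plus strand of GRCh38.p14. Capitals mark matches, on either strand, to any of 4 motifs: TATAAA, bound by the general factor TBP; CCAAT, bound by the factor NF-Y; GGGCGG, bound by SP1; and AGGTCA, a core motif of nuclear receptors such as those for retinoic acid. A match is a description of the letters, not a site in use.
HOXC4: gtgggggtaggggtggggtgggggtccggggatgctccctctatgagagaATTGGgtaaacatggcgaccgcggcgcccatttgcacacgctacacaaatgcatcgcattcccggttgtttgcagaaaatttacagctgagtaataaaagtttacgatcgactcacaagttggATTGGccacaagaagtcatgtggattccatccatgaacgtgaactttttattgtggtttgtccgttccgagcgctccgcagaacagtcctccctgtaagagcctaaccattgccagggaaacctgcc
HOXD8: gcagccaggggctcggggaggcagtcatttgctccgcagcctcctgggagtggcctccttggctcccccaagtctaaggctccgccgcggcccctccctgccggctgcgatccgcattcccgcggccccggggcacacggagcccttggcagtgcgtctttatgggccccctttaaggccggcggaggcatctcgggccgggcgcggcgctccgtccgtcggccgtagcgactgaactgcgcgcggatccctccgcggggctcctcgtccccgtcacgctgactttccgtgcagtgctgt
HOXD10: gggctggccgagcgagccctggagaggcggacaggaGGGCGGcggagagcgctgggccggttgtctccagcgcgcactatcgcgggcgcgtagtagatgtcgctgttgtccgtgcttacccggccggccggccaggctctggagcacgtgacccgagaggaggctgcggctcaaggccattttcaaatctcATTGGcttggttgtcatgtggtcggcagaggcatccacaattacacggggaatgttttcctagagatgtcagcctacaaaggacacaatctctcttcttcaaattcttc
HOXD12: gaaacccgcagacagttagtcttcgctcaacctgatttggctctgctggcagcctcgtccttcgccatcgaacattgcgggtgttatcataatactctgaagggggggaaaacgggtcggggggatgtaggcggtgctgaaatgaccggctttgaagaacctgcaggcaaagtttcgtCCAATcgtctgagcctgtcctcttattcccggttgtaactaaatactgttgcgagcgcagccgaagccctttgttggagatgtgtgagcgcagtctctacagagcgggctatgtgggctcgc

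CCAAT was found in 9 of the 11 different HOX windows and in 34.6% of all 34943 windows. GGGCGG was found in 5 of 11 HOX windows and in 44.9% of all. TATAAA was found in the window of *HOXD13* and in 11.6% of all windows, and AGGTCA in 0 of 11 HOX windows and in 13.8% of all. The ratio of observed to expected CpG dinucleotides had a median of 0.86 in the 11 HOX windows and 0.58 in all windows. It lay between 0.60 and 0.99 in the 6 different windows of genes above the olfactory receptor level and between 0.24 and 0.87 in the 4 windows of genes below it, so the ranges overlapped. *HOXD4* had the lowest ratio, and *HOXD12*, with 0.87, had nearly that of *HOXD8* (0.89) and *HOXD10* (0.86).

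All values below are the deposited RMA values, on a log2 scale per probe set. The arrays had medians of 6.39 to 6.43 and RNA integrity numbers of 9.5 to 9.8, and 0 pairs of arrays were identical. Of the 15 noradrenergic neuroblastoma markers listed for a check of the cell line, 13 were measured and 13 of these were above the olfactory receptor level on all arrays, including *PHOX2A*, *HAND2*, *GATA3*, *DBH* and *TH*. Of markers of other cells, 0 of 5 epithelial, 1 of 4 haematopoietic (*HBB*), 3 of 5 glial (*SOX10*, *S100B* and *GFAP*) and 7 of 10 mesenchymal ones were above it. The share of all genes with a probe set was 62.8%. Between groups 0 of all these lists passed in limma. An unadjusted p under 0.05 was found for 1, *GFAP*, beside 2.65% of all tested genes. Between replicate numbers 3 and 1, 8.23% of all tested genes passed in limma. Among them were the mesenchymal markers *YAP1* (-0.65, adjusted p 0.021) and *VIM* (-0.40, adjusted p 0.022) and the noradrenergic marker *GAP43* (0.42, adjusted p 0.029). These 3 calls were lost without any 1 of the 4 arrays numbered 1 or 3. *YAP1* also passed the F test over all 3 numbers (adjusted p 0.048, limma). With no scanner background at hand, 334 olfactory receptor genes gave the level for background. They were assumed, without a check, not to be used outside the olfactory epithelium. A gene was counted as above the level when its value exceeded the 95th percentile of these genes on each of the 6 arrays. That percentile was 6.13, 6.16 and 6.03 on the anti-miR-137 arrays and 6.14, 5.96 and 5.89 on the control arrays. Above the 99th percentile of these genes, *SOX10* and *COL1A1* stood on 0 arrays, *SNAI2* on 3, and *GFAP* and *YAP1* on 5. The other markers above the level, including every measured noradrenergic one, stood above the 99th percentile on all 6. Probes differ in how strongly they bind, so values of different genes were not ranked, and a gene below the level is not shown to be silent.

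In SH-SY5Y cells 14 of the 29 HOX genes were above the olfactory receptor level: *HOXC4*, *HOXC5*, *HOXC6*, *HOXC8*, *HOXC9*, *HOXC13*, *HOXD3*, *HOXD8*, *HOXD9*, *HOXD10*, *HOXD11*, *HOXD13*, *HOXB3* and *HOXB13*. They made up 6 of 9 genes of cluster C, 6 of 9 of cluster D and 2 of 10 of cluster B. Another 11 genes were below it on every array, and 4 were above it on some arrays only. The share of 48.3% was not above the background, since 62.8% of all genes with a probe set met the same condition. Which neighbours met it followed the order of the clusters in part: *HOXC4* to *HOXC9* formed an unbroken run (human cells have no HOXC7), as did *HOXD8* to *HOXD11*, while *HOXD3*, *HOXD13* and *HOXC13* stood apart from these runs. A stricter line was the 99th percentile of the olfactory receptor genes (7.18 to 7.46 over the arrays). Above it on all arrays were 8 genes, *HOXC4*, *HOXC5*, *HOXC6*, *HOXC8*, *HOXC9*, *HOXD8*, *HOXD9* and *HOXD10*, and none of cluster B. Of all genes, 47.8% met that condition. *HOXC9* was at the line on anti-miR-137 replicate 2, with 7.467 against 7.463. The other probe set of *HOXD9* (6.83 to 7.05) was below the stricter line on every array.

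**Figure D1:**
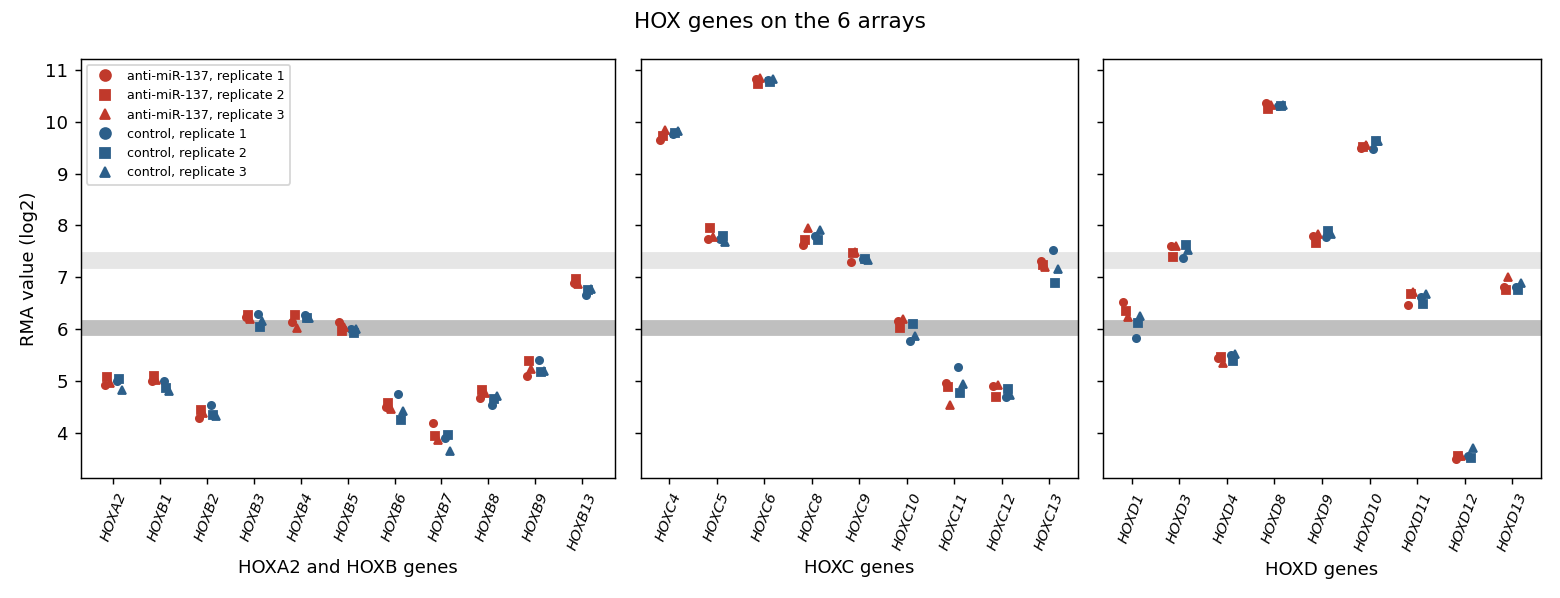
RMA values (log2) of the 29 measured HOX genes on the 3 anti-miR-137 arrays (red) and the 3 control arrays (blue), in paralogue order within each cluster, with a marker shape per replicate number. The dark band spans the 95th and the light band the 99th percentile of 334 olfactory receptor genes over the arrays; the runs *HOXC4* to *HOXC9* and *HOXD8* to *HOXD11* lie above the dark band, and *HOXB6* to *HOXB9* lie below it.

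Cluster C held the run from neck to thorax. *HOXC6*, which marks motor neurons at forelimb level in vertebrate embryos, had 10.83, 10.72 and 10.85 on the anti-miR-137 arrays and 10.80, 10.76 and 10.83 on the control arrays. *HOXC4*, a gene of the neck region, had 9.66, 9.73 and 9.84 with anti-miR-137 and 9.76, 9.78 and 9.82 with control anti-miR. *HOXC5* had 7.75, 7.96 and 7.77 with anti-miR-137 and 7.74, 7.79 and 7.69 with control anti-miR. The groups overlapped for all 3 genes. The RefSeq spans of *HOXC4*, *HOXC5* and *HOXC6* overlap each other, and whether their probe sets read transcripts that these genes share was not tested.

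*HOXC8*, a gene of the lower neck and upper thorax, had 7.63, 7.73 and 7.95 with anti-miR-137 and 7.80, 7.71 and 7.92 with control anti-miR. The arrays numbered 3 were the highest of both groups. *HOXC9*, which sets thoracic identity in spinal motor neurons, had 7.31, 7.47 and 7.49 with anti-miR-137 and 7.35, 7.35 and 7.34 with control anti-miR. Its control values lay within the range of the anti-miR-137 values. *HOXC13*, known for its part in hair and nail growth, had 7.32, 7.23 and 7.21 with anti-miR-137 and 7.53, 6.88 and 7.17 with control anti-miR. Both its highest and its lowest value were control arrays. Between *HOXC9* and *HOXC13*, the gene *HOXC10*, which acts at lumbar level, was above the olfactory receptor level on 3 of 6 arrays, and *HOXC11* and *HOXC12* were below it on all, with values from 4.53 to 5.27 for *HOXC11* and from 4.69 to 4.92 for *HOXC12*.

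Cluster D held a run of neighbouring trunk and lumbar genes. *HOXD8* had 10.36, 10.24 and 10.32 with anti-miR-137 and 10.30, 10.30 and 10.32 with control anti-miR. *HOXD9* had 7.80, 7.66 and 7.84 with anti-miR-137 and 7.78, 7.90 and 7.84 with control anti-miR. *HOXD10*, which acts in lumbar motor neurons, had 9.50, 9.50 and 9.56 with anti-miR-137 and 9.47, 9.63 and 9.62 with control anti-miR. The groups overlapped for these 3 genes, and each differed by under 0.25 log2 units within every replicate number. Both probe sets of *HOXD8* carry a suffix that marks possible cross-hybridisation with other transcripts, so its level rests on such probe sets alone.

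*HOXD11*, a gene of the forearm and kidney, had 6.47, 6.67 and 6.72 with anti-miR-137 and 6.62, 6.48 and 6.67 with control anti-miR. *HOXD13*, mutated in malformations of the digits, had 6.82, 6.76 and 7.003 with anti-miR-137 and 6.82, 6.76 and 6.90 with control anti-miR. In both groups the array numbered 3 was the highest for both genes. *HOXD3*, an anterior gene, had 7.61, 7.39 and 7.61 with anti-miR-137 and 7.37, 7.63 and 7.53 with control anti-miR. Its span overlaps that of *HOXD4*, a hindbrain gene that was below the level on every array (5.34 to 5.52). *HOXD12*, between *HOXD11* and *HOXD13*, stood at 3.50 to 3.70.

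Cluster B and the measured gene of cluster A were mostly below the level. *HOXB13*, the most posterior gene of cluster B and a partner of the androgen receptor in prostate, had 6.89, 6.97 and 6.86 with anti-miR-137 and 6.66, 6.76 and 6.77 with control anti-miR. *HOXB3*, which acts in the hindbrain, had 6.23, 6.28 and 6.21 with anti-miR-137 and 6.30, 6.03 and 6.16 with control anti-miR. Its margin over the line was small on every array. The probe set read for *HOXB3* carries a suffix that marks possible cross-hybridisation, and without such probe sets the gene was not above the level. The RefSeq spans of *HOXB3* and *HOXB4* overlap. Just short of the condition stood *HOXD1*, described below, and *HOXB4*, a gene also used in blood stem cells, which had 6.14, 6.27 and 6.02 with anti-miR-137 and 6.27, 6.22 and 6.21 with control anti-miR and missed the line on 1 array. *HOXB5*, known for its part in the enteric neural crest, was above it on 3 arrays. The hindbrain genes *HOXB1*, *HOXB2* and *HOXA2* and the trunk genes *HOXB6*, *HOXB7*, *HOXB8* and *HOXB9* were below it on all 6, with values from 3.66 (*HOXB7*, control replicate 3) to 5.41 (*HOXB9*, control replicate 1).

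Other probe sets of the same genes did not always meet the condition. The 29 genes had 49 probe sets. Both probe sets of *HOXD8*, *HOXD9*, *HOXD10* and *HOXD13* were above the level on all arrays, as were 2 of 3 of *HOXC6*, whose remaining probe set stood at 4.51 to 4.97. For *HOXC8* 1 of 2 was above it, and the other lay between 4.05 and 4.47. For *HOXB3* and *HOXB13* it was 1 of 4 each. With all probe sets of a gene averaged, 11 HOX genes were above the level and *HOXB3*, *HOXB13* and *HOXC8* were not.

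No HOX gene passed the test of anti-miR-137 against control in limma. Of the 29 genes, 18 passed the filter on dim probe sets (a mean of at least 5.69, the 40th percentile of all probe sets) and entered the fit over 12639 genes. None of the 18 had an adjusted p under 0.05, where 0% of all tested genes did, and the adjusted p of each was 1. An unadjusted p under 0.05 was found for 2, *HOXB13* and *HOXD1*, both higher with anti-miR-137, beside 2.65% of all tested genes (1.65% higher). Without anti-miR-137 replicate 1 or without control replicate 1, 0 HOX genes had such a p. The log2 fold changes, anti-miR-137 over control, ran from -0.10 (*HOXB4*) to 0.30 (*HOXD1*), with 13 genes above and 5 below 0. Their median was 0.032, beside 0.0033 over all tested genes. The 95% confidence interval lay within 0.5 log2 units of 0 for 17 of the 18, all but *HOXD1*, and for 95.5% of all tested genes. Of the 11 genes that did not pass the filter, 6 lay above and 5 below 0, with differences from -0.20 (*HOXC11*) to 0.16 (*HOXB7*).

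**Figure D2:**
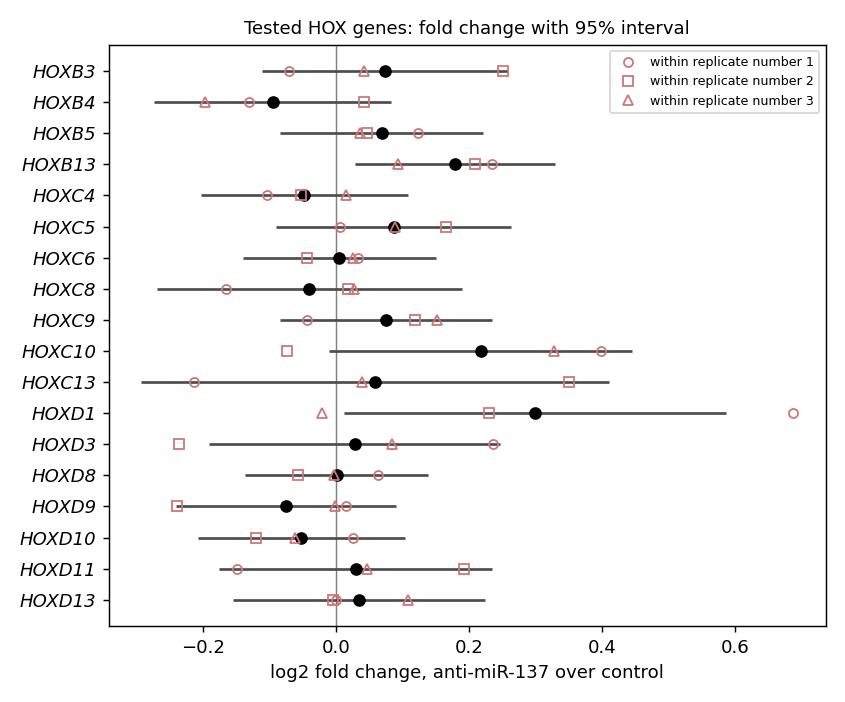
Log2 fold changes of the 18 tested HOX genes, anti-miR-137 over control (filled circles), with the 95% confidence interval from limma (lines) and the difference within each replicate number (open symbols). All intervals but those of *HOXB13* and *HOXD1* include 0, and the differences within numbers have mixed signs for 15 of the 18 genes.

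The 8 genes above the stricter 99th percentile, all of the 2 runs, had intervals between -0.27 and 0.26. For *HOXC6* the log2 fold change was 0.0048 (95% confidence interval -0.14 to 0.15), for *HOXD8* 0.00034 (-0.14 to 0.14), for *HOXC4* -0.05 (-0.20 to 0.11) and for *HOXD10* -0.05 (-0.21 to 0.10). *HOXC5* had 0.09 (-0.091 to 0.26), *HOXC9* 0.07 (-0.085 to 0.23), *HOXC8* -0.04 (-0.27 to 0.19) and *HOXD9* -0.08 (-0.24 to 0.091). All 8 intervals included 0. Among the 18 genes the interval was widest for *HOXC13*, with 0.06 (-0.29 to 0.41). Of the others above the level, *HOXD11*, the remaining gene of the runs, had 0.03 (-0.18 to 0.23). *HOXD3* had 0.03, *HOXD13* 0.03 and *HOXB3* 0.07, each with an interval that included 0.

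*HOXB13* was the 1 tested HOX gene whose groups did not overlap, which held for 7.36% of all tested genes (4.19% with anti-miR-137 higher, as for *HOXB13*, and 3.16% with it lower). Its mean was 6.91 ± 0.057 with anti-miR-137 and 6.73 ± 0.064 with control anti-miR (SD, n = 3 each). The log2 fold change was 0.18 (standard error 0.064, unadjusted p 0.026, adjusted p 1, limma). It was higher with anti-miR-137 within all 3 numbers, by 0.23, 0.21 and 0.092 in numbers 1, 2 and 3. The 3 other probe sets of *HOXB13*, all below the olfactory receptor level, gave -0.06, 0.04 and 0.04.

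*HOXD1*, an anterior gene with a known part in nociceptive neurons of the mouse, had 6.52, 6.36 and 6.24 with anti-miR-137 and 5.83, 6.13 and 6.26 with control anti-miR. The lowest value was control replicate 1, which was also the array on which the gene was below the olfactory receptor level. The groups overlapped. The log2 fold change was 0.30 (standard error 0.12, unadjusted p 0.044, adjusted p 1, limma), and the difference varied between the numbers: 0.69 in number 1, 0.23 in number 2 and -0.02 in number 3. Without control replicate 1 it was 0.18. *HOXC10* had 6.16, 6.02 and 6.20 with anti-miR-137 and 5.77, 6.10 and 5.88 with control anti-miR. Its log2 fold change was 0.22 (standard error 0.097, unadjusted p 0.059, adjusted p 1, limma), and the groups overlapped. It was higher in numbers 1 and 3, by 0.40 and 0.33, and lower by 0.07 in number 2. Without control replicate 1 the fold change was 0.14, and without control replicate 2 it was 0.31 (unadjusted p 0.011, limma).

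**Figure D3:**
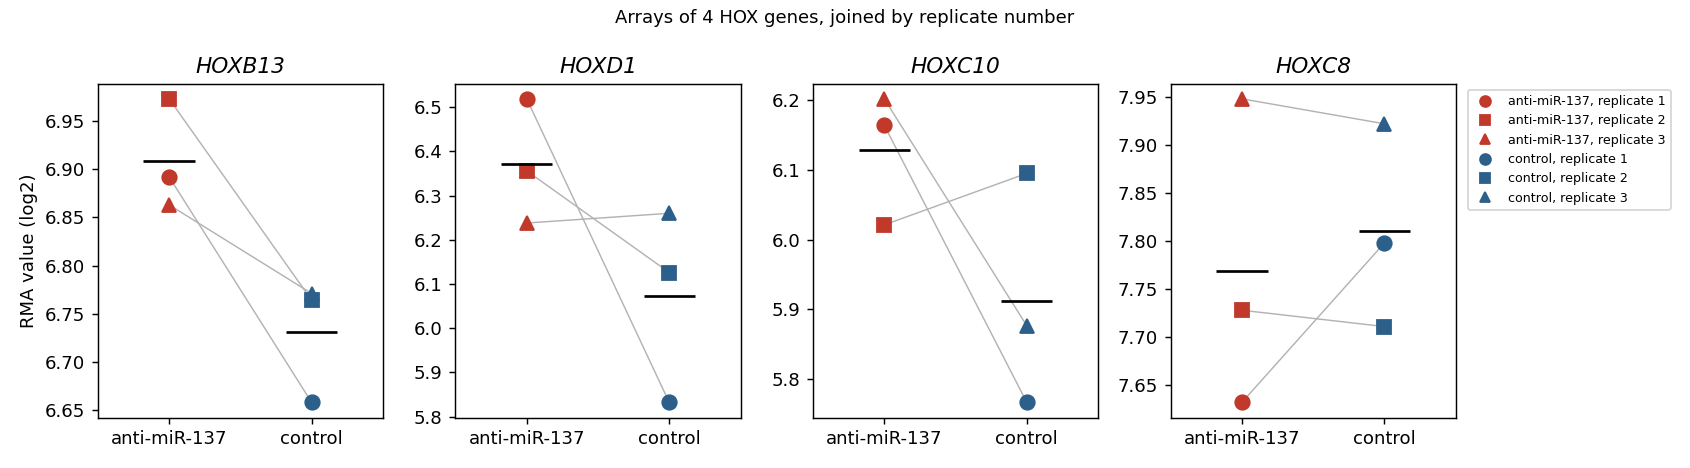
RMA values (log2, axes not starting at 0) of *HOXB13*, *HOXD1*, *HOXC10* and *HOXC8* on the 3 anti-miR-137 arrays (left in each panel) and the 3 control arrays (right), joined by replicate number, with group means as bars. The *HOXB13* groups do not overlap, *HOXD1* differs by 0.69 in number 1 and by -0.02 in number 3, and *HOXC8* is highest in both arrays numbered 3.

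Within all 3 numbers, *HOXB5*, *HOXB13* and *HOXC5* were higher with anti-miR-137, 3 of 18 genes where 15% of all tested genes were, and 0 of 18 were lower, where 13.2% were. The genes with the highest fold changes were dim ones, and most dim genes of the whole array had higher means with anti-miR-137. In the dimmest 20% of the tested genes 64.3% were higher, with a median log2 fold change of 0.038, and so were 7 of the 8 HOX genes there; *HOXD1*, *HOXC10* and *HOXB13* are among them. In the brightest 20% of genes 46.6% were higher, and the 1 HOX gene there was *HOXC6*. Of the 334 olfactory receptor genes 67.7% were higher with anti-miR-137, with a median difference of 0.058. The part of this relation in the HOX values was not tested.

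**Figure D4:**
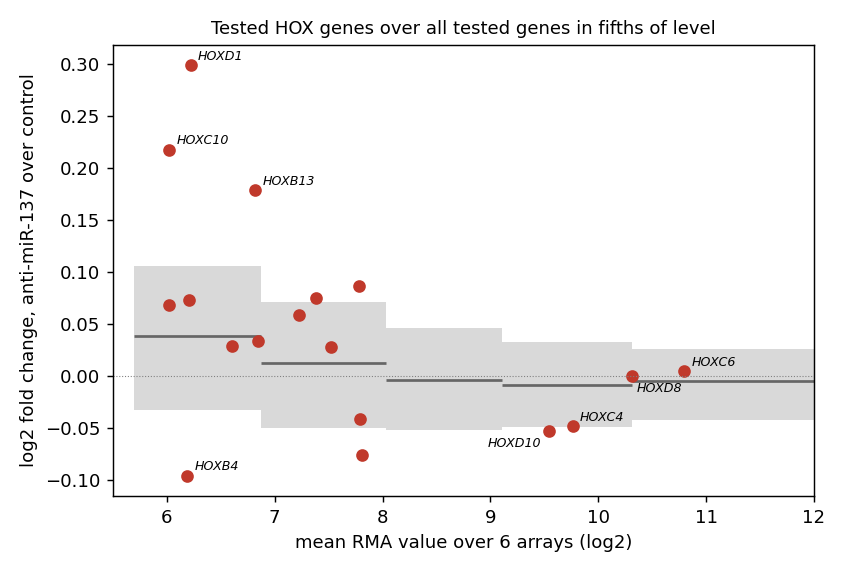
Log2 fold changes (anti-miR-137 over control) of the 18 tested HOX genes (points) against their mean RMA value (log2) over 6 arrays, over the median (line) and the middle 50% (grey) of all 12639 tested genes in 5 equal classes of level. The median of all genes is 0.038 in the dimmest class and -0.0042 in the brightest, and *HOXD1*, *HOXC10* and *HOXB13* lie farthest above the grey area.

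No HOX gene passed the test between replicate numbers. In a limma fit with number and group as terms, which leaves 2 residual degrees of freedom, 0 of the 18 HOX genes passed an adjusted p of 0.05 in the F test over the 3 numbers, where 2.53% of all tested genes did (320, and 0 to 540 with 1 array left out). Their adjusted p ran from 0.20 to 0.93. An unadjusted p under 0.05 was found for 1, *HOXC8*, where 23.5% of all tested genes had one. The difference between numbers 3 and 1 was the one with most calls over all genes (1040 genes, 8.23%), and 0 HOX genes were among them. The 1040 became 3 without anti-miR-137 replicate 1, 2 without control replicate 1, and 0 without either array numbered 3, with 0 HOX genes each time. Numbers 2 and 1 gave calls for 0.0316% of genes and numbers 3 and 2 for 0.00791%, again with 0 HOX genes. The 18 genes had a median difference of 0.063 between numbers 3 and 1, with 12 above and 6 below 0, beside -0.012 over all tested genes. Without regard to sign the median difference was 0.079 log2 units for the HOX genes and 0.12 for all tested genes.

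*HOXC8* was higher in number 3 than in number 1 by 0.22 log2 units (standard error 0.074), with an unadjusted F test p of 0.042 and an adjusted one of 0.20 in limma, and higher than in number 2 by 0.22. Without anti-miR-137 replicate 1 the difference between numbers 3 and 1 was 0.13, and over all arrays left out in turn it lay between 0.13 and 0.31. Its other probe set, which is below the olfactory receptor level, went the other way, with -0.25 between numbers 3 and 1, and averaging both gave -0.013. *HOXD13* was higher in number 3 than in number 1 by 0.13 and than in number 2 by 0.19 (adjusted F test p 0.24 in limma). Without anti-miR-137 replicate 3 the difference between numbers 3 and 1 was 0.073. Its other probe set was higher in number 3 than in number 1 by 0.089. *HOXC4* was also highest on both arrays numbered 3, with 0.12 between numbers 3 and 1 (adjusted F test p 0.46 in limma). On the anti-miR-137 array numbered 3, 15 of the 18 genes stood above their own 6-array mean, and on the control array numbered 3, 11 did; on the arrays numbered 1 it was 9 with anti-miR-137 and 5 with control anti-miR, and on those numbered 2 it was 9 with anti-miR-137 and 7 with control anti-miR.

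**Figure D5:**
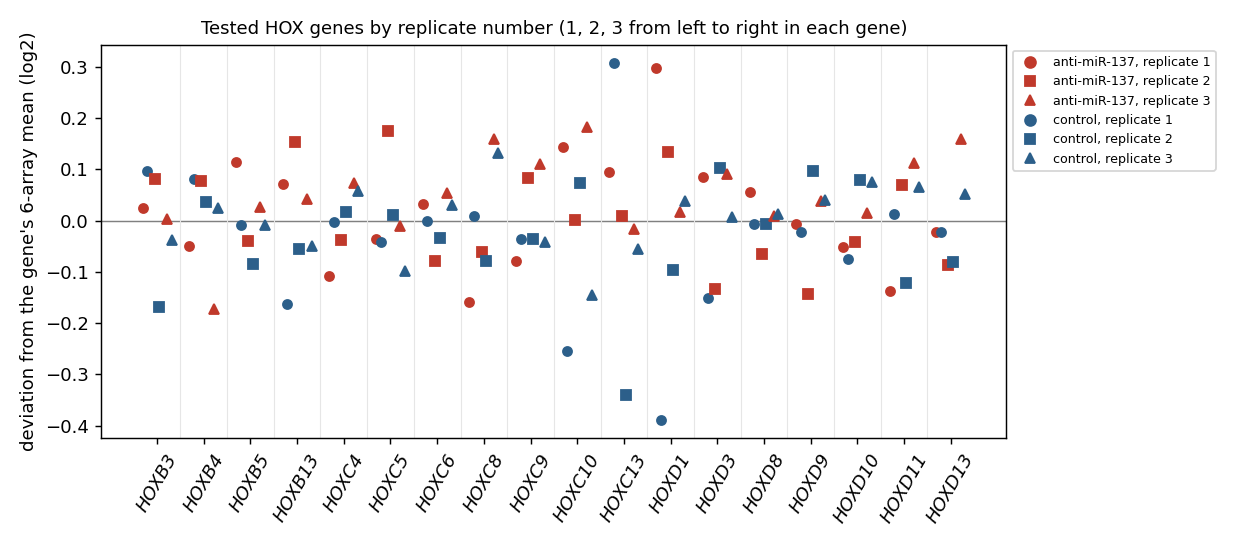
Deviation of each of the 18 tested HOX genes from its own mean over 6 arrays (log2), by replicate number 1, 2 and 3 from left to right within a gene, for anti-miR-137 (red) and control (blue) arrays. Both arrays numbered 3 lie highest for *HOXC4*, *HOXC8* and *HOXD13*, and the arrays farthest from 0 are control arrays of *HOXD1* and *HOXC13*.

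All 8 measured TALE cofactors were above the olfactory receptor level on all arrays, where 62.8% of all genes with a probe set were. Above the stricter 99th percentile, *PBX4* stood on 1 array, *PKNOX2* on 0 and the others on all. None passed between groups in limma (0 of 8, and 0 at an unadjusted p under 0.05), with 2 above and 6 below 0 and a median log2 fold change of -0.013. The smallest p of the list belonged to *MEIS2* (-0.07) and *MEIS3* (0.09), whose intervals included 0. Between replicate numbers 3 and 1, 1 of 8 passed, beside 8.23% of all tested genes: *MEIS1* was lower in number 3 (-0.31, adjusted p 0.037, limma). *PKNOX1* had 0.24 (adjusted p 0.073) between these numbers. *MEIS1* was also lower in number 2 than in number 1 (-0.37, adjusted p 0.14, limma). Between numbers 3 and 2 it differed by 0.063. In the F test over all 3 numbers 0 of 8 passed, with an adjusted p of 0.055 for *MEIS1* and 0.11 for *PKNOX1*. An unadjusted p under 0.05 in that test was found for 3 of 8, beside 23.5% of all tested genes. The *MEIS1* call was lost without any 1 of the 4 arrays numbered 1 or 3, with differences from -0.33 to -0.30.

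Of 32 listed regulators of HOX clusters 27 were measured. Beside 62.8% of all genes with a probe set, 19 of the 27 were above the level on all arrays. These included the Trithorax genes *KMT2A* and *KMT2B*, the Polycomb genes *EZH2*, *EED*, *SUZ12* and *BMI1*, the insulator protein gene *CTCF* and the retinoic acid receptor genes *RARA*, *RARB* and *RARG*. The retinoic acid hydroxylase genes *CYP26A1*, *CYP26B1* and *CYP26C1* were below it on all arrays, as were *CDX4*, *GBX2* and *CBX7*. Of the 19, all but *KMT2B* (3 arrays) and *DOT1L* (0 arrays) were also above the stricter 99th percentile on every array. Of the 21 regulators tested, 14 lay above and 7 below 0, with a median log2 fold change of 0.025. None passed in limma, and beside 2.65% of all tested genes 1 of 21 had an unadjusted p under 0.05. That was *DOT1L*, the H3K79 methyltransferase, with -0.17 (adjusted p 1, limma), and *RARB* had 0.13. Between numbers 3 and 1, 2 of 21 passed, beside 8.23% of all tested genes: *CTCF* with 0.37 (adjusted p 0.025, limma) and *RARA* with -0.34 (adjusted p 0.034). In the F test over all 3 numbers 0 of 21 passed, with an adjusted p of 0.058 for *CTCF* and 0.082 for *RARA*. An unadjusted p under 0.05 in that test was found for 3 of 21, beside 23.5% of all tested genes. Both calls between numbers 3 and 1 were lost without any 1 of the 4 arrays numbered 1 or 3, and *RARA* had 0.0056 without probe sets of possible cross-hybridisation. Of 20 listed non-coding transcripts of the clusters, *HOXB-AS3* was measured; it was above the level on 5 arrays and had a log2 fold change of 0.06 with an interval that included 0.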

How the data were processed

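Total RNA of 6 samples, 100 ng each, was biotin-labelled and measured on 1-colour arrays, per the labels' protocols. The authors deposited log2 values, made with RMA in R 3.0.1 per the submitters' processing notes. RMA corrects background, makes the arrays' distributions alike and combines probes into probe sets, so that a change common to all mRNAs would not show. Chip definition and scanner settings are not given in the sources used here. Of 49495 probe sets, 102 controls, 1333 with several symbols and 2782 with none were left out of genes. Genes were kept at a mean of at least the 40th percentile (5.69) and read from their brightest probe set. limma 3.58.1 in R 4.3.3 fitted group alone, or replicate number with group, over 12639 genes with two-sided tests, and p-values were adjusted by Benjamini-Hochberg over all of them. The steps were tested on simulated data. The members, lists and tests were chosen with earlier results of these data known. Genes of other lists were named by the 2 smallest unadjusted p between groups and the 2 smallest F test p between numbers; further genes named for their level were chosen after their values were seen. Alternatives changed the filter, the probe set rule, the scaling, the terms, the background level and the arrays used. The number of arrays limits the precision.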

Additional observations from a re-analysis of the deposited data

How the results depend on the processing

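No alternative gave a gene past an adjusted p of 0.05 between anti-miR-137 and control. Of 219 HOX fold changes recomputed under the alternatives, 194 kept their direction, 25 reversed and 0 passed (lowest adjusted p 0.75, limma). Changing the filter or adding the replicate block could not alter a fold change, so part of the 194 was fixed in advance. The same held for genes whose probe set stayed the same under the probe set rules. Among the HOX genes, 9 reversed at least once. The cause of the changes below was not tested. The median HOX log2 fold change (0.032) was 0.0026 with the 60th percentile filter, 0.016 with arrays centred on their medians, 0.0161 with the RNA integrity number as covariate, and -0.0074 to 0.052 with 1 array left out. Genes past the threshold between replicate numbers (320) were 2 with no filter, 1099 with the 60th percentile filter, 561 with the mean of all probe sets, 526 with number as the only term and 0 to 540 with 1 array left out, a fit with 1 residual degree of freedom. The HOX genes above the olfactory receptor level (14) were 8 at the 99th percentile and 11 to 18 under the other definitions. With 1 array left out they were 14 to 15, *HOXD1* joining without control replicate 1 and *HOXB4* without anti-miR-137 replicate 3. With the mean of all probe sets the sign turned for *HOXC8* (0.038), *MEIS2* (0.034) and *DOT1L* (0.018), and for *HOXC8* between numbers 3 and 1 (-0.013) and 3 and 2 (-0.0051). Without probe sets of possible cross-hybridisation it turned for *HOXD9* (0.0093) and for *RARA* between numbers 3 and 1 (0.0056). Centred arrays turned *HOXC6* (-0.011) and *HOXD8* (-0.016). The RNA integrity covariate turned *HOXC4* (4.2e-05), *HOXC6* (-0.022), *HOXC8* (0.012), *HOXC13* (-0.074) and *HOXD8* (-0.035). With 1 array left out, *HOXC6* gave -0.021 to 0.045, *HOXC8* -0.13 to 0.028, *HOXC13* -0.097 to 0.23, *HOXD3* -0.041 to 0.10, *HOXD8* -0.027 to 0.033, *HOXD11* -0.025 to 0.11 and *HOXD13* -0.037 to 0.086. In the F test over the 3 numbers *MEIS1*, *CTCF*, *PKNOX1* and *RARA*, which missed the threshold there, passed with the 60th percentile filter, and *MEIS1* and *CTCF* also with the mean of all probe sets and with number as the only term. The alternatives for numbers 3 against 1 were added after seeing the data: the 1040 genes were 169 with no filter and 1657 with the 60th percentile filter, and *MEIS1*, *CTCF*, *RARA*, *YAP1*, *VIM* and *GAP43* all missed the threshold with no filter, and *RARA*, *YAP1* and *GAP43* also with the mean of all probe sets.

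Same-numbered arrays deviated together in numbers 1 and 3 (correlations of 0.55 and 0.65) and hardly in number 2 (0.073). By the rule used, the numbers were not taken as pairs because 1 of the correlations was under 0.1. What the arrays of numbers 1 and 3 share therefore stayed in the spread of the main fit, which had group alone. With replicate number as a block, 0 genes and 0 HOX genes passed between anti-miR-137 and control. An unadjusted p under 0.05 (limma) was then found for 815 genes and 1 HOX gene, and in the main fit for 335 and 2.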

Other observations

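Of 7 further homeobox genes, including neighbours of the HOX clusters and ParaHox genes, 2 were above the olfactory receptor level on all 6 arrays. These were *EVX1* and *EVX2*, which lie at the posterior ends of clusters A and D. *GSX2* was above the level on 5 arrays, and *GSX1*, *PDX1*, *MNX1* and *GBX1* were below it on all. Of all genes with a probe set, 62.8% were above it on all arrays. Above the stricter 99th percentile, *EVX1* stood on 3 arrays and *EVX2* on 0. *EVX2* had a log2 fold change, anti-miR-137 over control, of 0.17 (95% confidence interval -0.039 to 0.38) and *EVX1* of 0.13 (-0.077 to 0.34). *GSX2* had -0.06 (-0.38 to 0.26). In limma 0 of the 3 genes tested passed. An unadjusted p under 0.05 was found for 0 of them, beside 2.65% of all tested genes. *EVX1* had 0.22 (unadjusted p 0.017) without control replicate 1, 0.066 without control replicate 2 and 0.22 (unadjusted p 0.0095) with the mean of all probe sets. For *EVX2*, leaving out control replicate 1 gave 0.23 (unadjusted p 0.038), and leaving out anti-miR-137 replicate 3 gave 0.24 (unadjusted p 0.027). Dropping any other single array lowered its fold change to between 0.12 and 0.15. The RNA integrity covariate gave 0.12. Each of these lower values had an unadjusted p above 0.05 in limma.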
